A study of Mus musculus with 69 samples.

Results

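Integrated stress response genes were followed in mosaic gastruloids, aggregates of mouse embryonic stem (mES) cells that differentiate in culture, in which wild-type (WT) cells grew beside other WT cells or beside cells lacking p53 (p53KO). The 9 genes were Atf4, Ddit3, Atf3, Atf5, Ppp1r15a, Trib3, Asns, Psat1 and Chac1, taken by symbol from the deposited count table, where all 9 were found among 55367 gene symbols. Every cell came from E14Tg2a mES cells and belonged to 1 of 3 clones: a WT clone with nuclear H2B–mCherry (WT–mCherry), a WT clone with nuclear H2B–emiRFP670 (WT–emiRFP), and a subclone of the latter with Trp53 mutated (p53KO–emiRFP). Each was a single clone, so a difference of genotype or fluorophore and a difference between clones cannot be told apart. At 0 h the mES cells were taken from serum and LIF medium. Gastruloids were seeded in N2B27 medium from 150 WT–mCherry cells with either 150 WT–emiRFP cells (WT + WT) or 25 p53KO–emiRFP cells (WT + p53KO), received the Wnt agonist CHIR99021 at 48 h until 72 h, and were sorted by fluorophore at 48, 72, 96, 120 and 144 h after aggregation. This gave 23 groups of 3 replicates, 69 libraries of polyadenylated RNA.

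The integrated stress response joins several kinds of stress to one outcome. Kinases that sense lack of amino acids, misfolded protein in the endoplasmic reticulum, viral RNA or lack of haem phosphorylate the translation factor eIF2, which lowers protein synthesis while the mRNA of the transcription factor ATF4 is translated more. ATF4 then raises genes for amino acid synthesis and import, tRNA charging and redox balance, together with Ddit3, which encodes the transcription factor CHOP and is linked to cell death when the stress lasts, and with Ppp1r15a, which encodes GADD34 and ends the response by dephosphorylating eIF2. Because the first steps act on protein, mRNA counts show the downstream programme and not the phosphorylation of eIF2.

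In the Gencode M21 annotation of GRCm38, the transcription factor genes are Atf4 (ENSMUSG00000042406.8) on chromosome 15 from 80255184 to 80257541, Ddit3 (ENSMUSG00000025408.15) on chromosome 10 from 127290774 to 127296288, Atf3 (ENSMUSG00000026628.13) on chromosome 1 from 191170296 to 191218039 and Atf5 (ENSMUSG00000038539.15) on chromosome 7 from 44812256 to 44816658. The feedback genes are Ppp1r15a (ENSMUSG00000040435.12) on chromosome 7 from 45522916 to 45526268 and Trib3 (ENSMUSG00000032715.9) on chromosome 2 from 152337422 to 152344032, and the enzyme genes are Asns (ENSMUSG00000029752.12) on chromosome 6 from 7675169 to 7693254, Psat1 (ENSMUSG00000024640.9) on chromosome 19 from 15904678 to 15947337 and Chac1 (ENSMUSG00000027313.3) on chromosome 2 from 119351229 to 119354381. Promoter sequences are shown to place the ATF4 motif beside the genes measured below. Windows from 250 bases before to 50 bases after the start of each gene (RefSeq, GRCm38.p6) were searched on both strands for the core of the C/EBP–ATF response element, which ATF4 binds with C/EBP partners, TGATGNAA, which was present in 3.969% of all 32851 windows, and for the cAMP response element, TGACGTCA, present in 1.79%. All 9 genes had a window at a RefSeq start. For Atf3 (191183284 to 191183583) and Psat1 (15925010 to 15925309 and 15924573 to 15924872) the windows lay inside the gene, away from the Gencode start. The Gencode starts of Atf3 and Psat1 were not searched. Stretches holding a match follow, in the direction of the gene, with the match in capitals; TTGCATCA and TTACATCA are the first motif read on the other strand.
Asns, chr6:7693214-7693243 on the minus strand: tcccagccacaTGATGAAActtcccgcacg
Chac1, chr2:119351023-119351082 on the plus strand: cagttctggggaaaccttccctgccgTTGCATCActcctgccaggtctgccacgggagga
Trib3, chr2:152344028-152344057 on the minus strand: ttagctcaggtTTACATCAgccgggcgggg
Atf3, chr1:191183410-191183469 on the minus strand: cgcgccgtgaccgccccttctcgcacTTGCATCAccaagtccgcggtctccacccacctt
Ppp1r15a, chr7:45526262-45526291 on the minus strand: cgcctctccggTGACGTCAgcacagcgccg
The first 4 hold the ATF4 core, at −23, −193, 15 and −110 bases from the RefSeq start, and Ppp1r15a holds the cAMP response element at −12. The match of Asns lay inside the first exon of its Gencode model, and the other 4 lay in no Gencode exon. That of Trib3 lay downstream of the RefSeq start. The windows of Atf4, Ddit3, Atf5 and Psat1 held neither run of letters. A match describes the sequence only; binding was not measured.

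The libraries held 26722541 to 72981570 counts, with a median of 53098728. Trp53 counts, scaled by median-of-ratios size factors over all 69 libraries (the normalized counts used throughout), lay between 1506 and 2589 in the 18 p53KO–emiRFP libraries and between 13902 and 27511 in the other 51, so the genotype labels held. The 6 pluripotency markers Pou5f1, Nanog, Klf4, Esrrb, Zfp42 and Tfcp2l1 summed to 179350 to 219180 in the mES cells and to 94266 or less in every gastruloid library. H2bc14, a histone gene high in the emiRFP clone line, was at 0.299–0.41% of its level in emiRFP cells of the same experiment at 48 h, and at 2.39–16.9% at 144 h, in sorted WT–mCherry cells beside p53KO cells, against 0.191–2.12% beside WT cells at 144 h. The comparison of those WT–mCherry groups is given below with and without this share subtracted.

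In RPKM, which scale counts by exon length and library total, the metabolic enzymes and Atf4 were the most abundant members. Psat1, a step of serine synthesis, ranged over the 23 group means from 75.8 to 206 RPKM. Asns, asparagine synthetase, ranged from 60 to 179, and Atf4 itself from 71.5 to 188. The other members were lower throughout. Group means spanned 5.77 to 31.4 RPKM for Trib3, 11.9 to 27.7 for Ppp1r15a, 5.72 to 26.8 for Chac1, 10.6 to 22.2 for Atf5, 4.46 to 12.1 for Ddit3 and 0.798 to 6 for Atf3. Atf3 thus had the lowest levels and also the widest span between groups, 6.88-fold in normalized counts, from 94.8 ± 7.08 (SD, n = 3) in WT–mCherry mES cells to 653 ± 91.9 in WT–mCherry cells beside p53KO cells at 120 h. Trib3 spanned 5.78-fold and Chac1 4.98-fold, both from WT–emiRFP cells at 96 h up to p53KO–emiRFP mES cells. Atf5 varied least, 1.83-fold between p53KO–emiRFP cells at 48 h and at 144 h. Within a group the median coefficient of variation ran from 4.43% for Asns to 14.2% for Chac1.

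**Figure D1:**
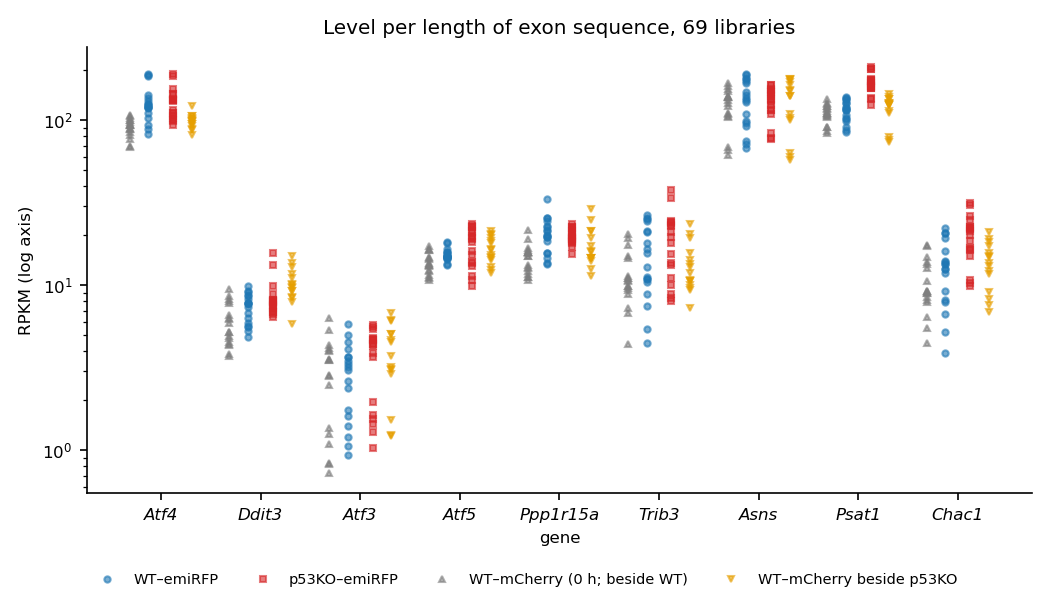
Level of each of the 9 genes per exon length. The y axis is RPKM on a log scale, the x axis gives the genes with the 4 populations side by side, each point is 1 of the 69 libraries, and colour marks the population. Psat1, Asns and Atf4 lie above the other 6 genes, and Atf3, whose group means span 6.88-fold, reaches the lowest levels.

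By count, 2 members overlap exons of an abundant gene on the opposite strand: Ddit3 shares 68 exon bases with Mars1, whose mean was 236.8 CPM (counts scaled by library total) against 13.5 for Ddit3, and Atf5 shares 82 with Nup62, at 225.6 CPM against 31.2. The symbol Ddit3 also has 2 gene models in Gencode M21, which share 105 exon bases on the same strand. The RPKM of Ddit3 used the length of the model named above, and how both models were counted under the symbol is not given. The libraries were stranded, but which strand column was counted is not given in the sources used here, so values of Ddit3 and Atf5 are less certain than the rest.

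The first comparison asked how p53KO–emiRFP cells differed from WT–emiRFP cells of the same time, each sorted from its own mosaic, so the 2 populations also differed in clone and in share of the gastruloid. The members were higher in p53KO–emiRFP cells at 72 and 96 h and split by gene at 144 h. At 72 h, 6 of 9 rose and none fell, in a comparison where 29.1% of all tested genes passed (edgeR quasi-likelihood test, Benjamini-Hochberg adjusted p below 0.05, used throughout). At 96 h, 8 of 9 rose, where 23.3% of all genes passed in either direction. At 144 h, 3 rose and 5 fell, where 65.4% of all genes passed. The median log2 difference of the members was 0.39 at 72 h, 0.48 at 96 h and −0.31 at 144 h, beside 0.01, −0.01 and 0.01 over all genes tested. In sorted bulk samples, fewer cells of a type and less RNA per cell cannot be told apart. The p-values measure the spread between 3 experiments with the same clones.

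**Figure D2:**
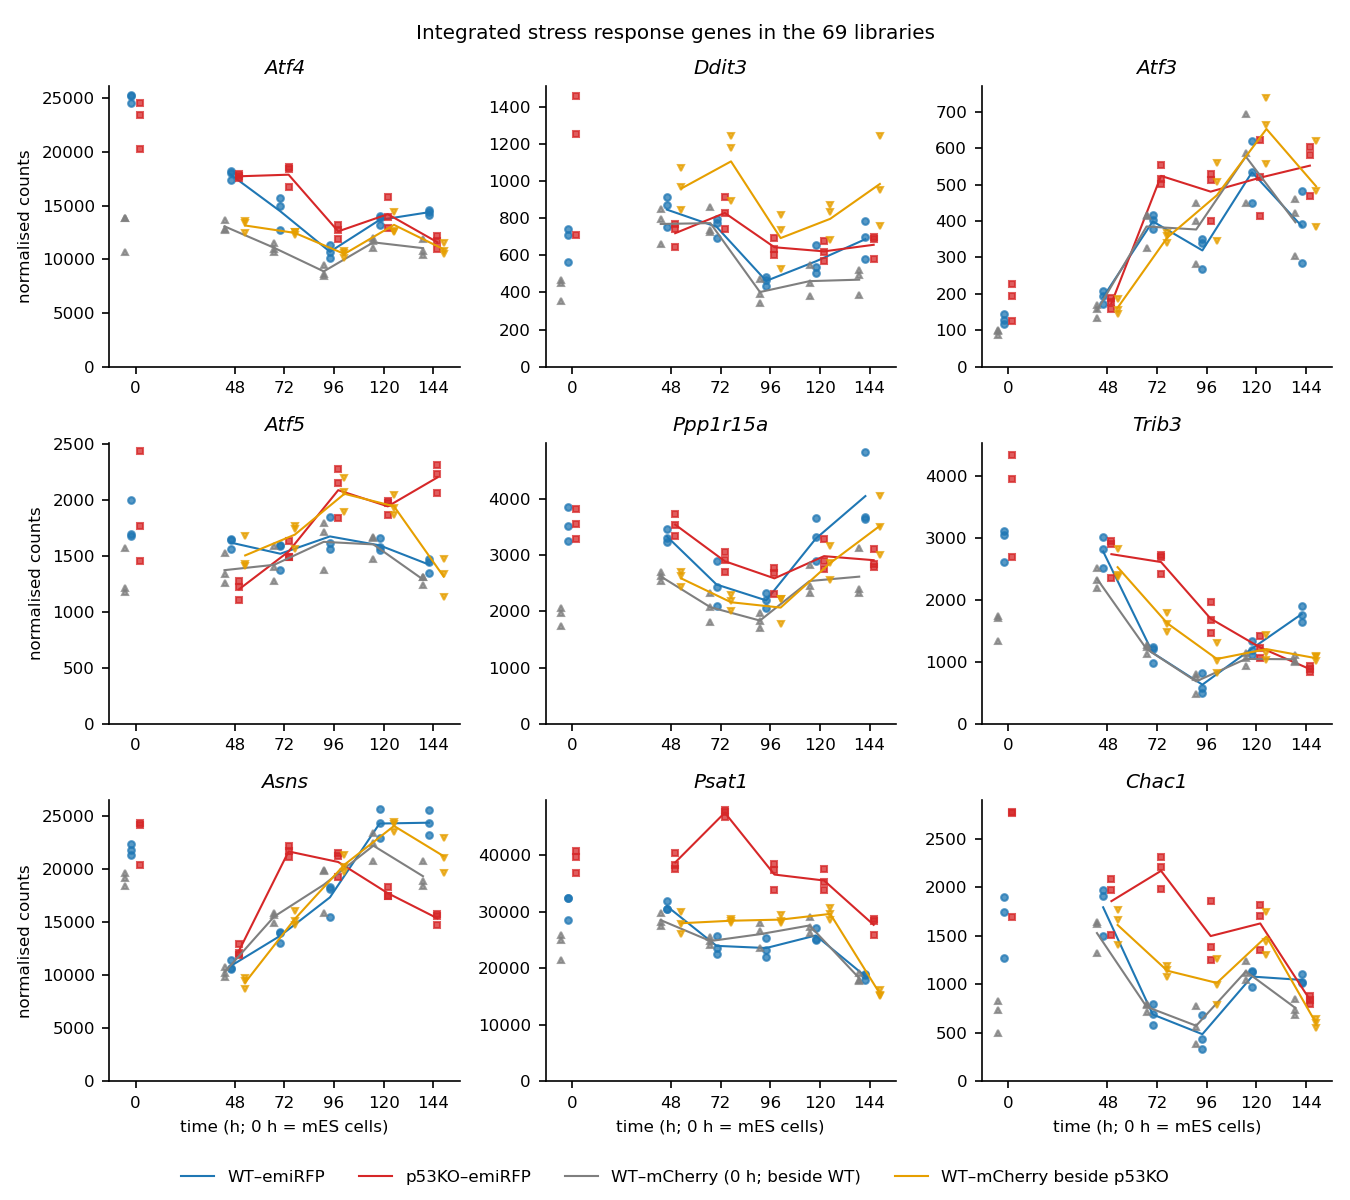
Normalized counts of the 9 genes in every library. The x axis is hours after aggregation (0 h, mES cells), the y axis normalized counts on a linear scale from 0 with a panel for each gene, points are single libraries and lines join the group means (n = 3) of the sorted populations over the gastruloid times. The means of Chac1 and Trib3 in p53KO–emiRFP cells sit above the other populations at 72 and 96 h, and Ddit3 in every library of WT–mCherry cells beside p53KO cells sits above WT–mCherry cells beside WT cells from 72 h on.

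Chac1, which breaks down glutathione and is among the most responsive ATF4 and CHOP targets, showed the largest difference among the members at 72 h. Its normalized counts were 2210.2, 2311 and 1984 in the 3 p53KO–emiRFP libraries and 694, 791 and 576 in the 3 WT–emiRFP libraries. The groups were far apart (log2 difference 1.66 ± 0.10, adjusted p = 9.32e-09). At 96 h the p53KO–emiRFP libraries held 1379, 1856 and 1251 and the WT–emiRFP libraries 435, 685 and 331. The difference was of like size, 1.62 ± 0.27 (adjusted p = 0.000534, and 0.0512 without replicate 1). It was smaller at 120 h, 0.59 ± 0.12 (adjusted p = 0.00108), and of the other sign at 144 h, −0.32 ± 0.09 (adjusted p = 0.0084, and 0.0983 without replicate 3).

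Trib3, a pseudokinase that dampens ATF4 and CHOP activity, ran a similar course. At 72 h it was 2705, 2722 and 2419 in p53KO–emiRFP and 1247, 1214 and 979 in WT–emiRFP libraries (log2 difference 1.19 ± 0.09, adjusted p = 2.28e-07). At 96 h it was 1676, 1963 and 1463 against 587, 819 and 495 (log2 difference 1.42 ± 0.21, adjusted p = 0.000202). No p53KO–emiRFP library overlapped the WT–emiRFP range at either time. At 144 h the order was the opposite, 881, 936 and 838 against 1654, 1903 and 1765 (log2 difference −1.0 ± 0.07, adjusted p = 4.53e-08), and at 120 h the difference was 0.02 ± 0.13 (adjusted p = 0.921). Ppp1r15a, the other member that feeds back on the response, fell at 144 h (log2 difference −0.48 ± 0.13, adjusted p = 0.0064). At 72 and 96 h its differences were 0.22 (adjusted p = 0.138) and 0.24 (adjusted p = 0.0789), which passed with the replicate number as a block (adjusted p = 0.0158 and 0.000185).

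Psat1 was higher in p53KO–emiRFP cells at all 5 gastruloid times, by 0.32 at 48 h (adjusted p = 0.000416), 0.99 at 72 h (adjusted p = 2.58e-09), 0.63 at 96 h (adjusted p = 1.24e-05), 0.46 at 120 h (adjusted p = 1.59e-05) and 0.58 at 144 h (adjusted p = 4.82e-07) on the log2 scale. At 72 h the libraries held 47671, 48008 and 46800 normalized counts against 23625, 25685 and 22477 in WT–emiRFP cells, and the ranges were apart at each of these times. Asns, the other enzyme of amino acid synthesis, changed direction instead. It was higher at 48 h (0.18, adjusted p = 0.0302, and 0.159 and 0.125 without replicates 1 and 2), 72 h (0.66, adjusted p = 1.94e-07) and 96 h (0.25, adjusted p = 0.0417), and lower at 120 h (−0.46, adjusted p = 1.44e-05) and 144 h (−0.67, adjusted p = 8.08e-07). At 72 h the p53KO–emiRFP libraries held 22202, 21145 and 21734 against 14012, 14102 and 13072, and at 144 h 14763, 15784 and 15581 against 23234, 24400 and 25593. Both sets were apart, in opposite order.

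The transcription factors differed as follows. Atf4 was higher at 72 h (log2 difference 0.31 ± 0.07, adjusted p = 0.00432, and 0.0705 without replicate 2) and 96 h (log2 difference 0.24 ± 0.06, adjusted p = 0.00702), and lower at 144 h (log2 difference −0.31 ± 0.06, adjusted p = 0.000391). Atf3, a factor induced by ATF4 and by several other signals, was higher at 72 h (0.39, adjusted p = 0.00661, and 0.0974 without replicate 1), 96 h (0.59, adjusted p = 0.0386) and 144 h (0.52, adjusted p = 0.0423, and 0.215 without replicate 1). Atf5, an ATF4-related factor whose mRNA is also under eIF2 control, was lower at 48 h (−0.43, adjusted p = 0.00147, and 0.0662 without replicate 1) and higher at 96 h (0.32, adjusted p = 0.0376), 120 h (0.28, adjusted p = 0.00211) and 144 h (0.63, adjusted p = 1.43e-05). At 144 h Atf5 held 2317, 2230.5 and 2065 normalized counts in p53KO–emiRFP and 1448, 1476 and 1348 in WT–emiRFP libraries, with no overlap. Ddit3 passed at 96 h alone (log2 difference 0.48 ± 0.14, adjusted p = 0.0249), with 604, 691 and 636 against 484, 466 and 435.

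Leaving out replicate 1 at 96 h kept the calls of Trib3 and Psat1 and lost those of Atf4, Ddit3, Asns, Chac1, Atf3 and Atf5. Without replicate 2, 4 members passed, and without replicate 3 all 9 did. Here and below, the share of all genes is not given for DESeq2 or for fits leaving out 1 replicate number. Such member counts cannot be set against it. At 72 h, 5 or 6 members passed without any 1 replicate number, at 120 h 4, and at 144 h 7 or 8. At 120 h, 3 members rose and 1 fell, where 51% of all genes passed. At 48 h, 2 rose and 1 fell, where 22.1% of all genes passed. With the replicate number as a block, Ddit3 also passed at 48 h, lower in p53KO–emiRFP cells (adjusted p = 0.000742 against 0.14 without the block), and so did Ppp1r15a, higher (adjusted p = 0.0366 against 0.283), in a fit that called 41.1% of all genes.

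In mES cells before aggregation, edgeR called none of the 9 members between p53KO–emiRFP and WT–emiRFP cells, where 6.14% of all genes passed. At an unadjusted p below 0.05, 4 members and 3320 of all 18395 genes passed, and DESeq2 called 2 members. Ddit3 was closest, with 712, 1253 and 1457 against 562, 709 and 743 normalized counts (log2 difference 0.76 ± 0.21, adjusted p = 0.0523). The lowest p53KO–emiRFP library lay within the WT–emiRFP range, and the other 2 lay above it. With the replicate number as a block, Ddit3 (adjusted p = 0.00382), Chac1 (0.54, adjusted p = 0.00127 against 0.159) and Psat1 (0.33, adjusted p = 0.0101 against 0.0539) were higher in p53KO–emiRFP mES cells, where 9.79% of all genes passed. Without replicate 1, 5 members passed.

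**Figure D3:**
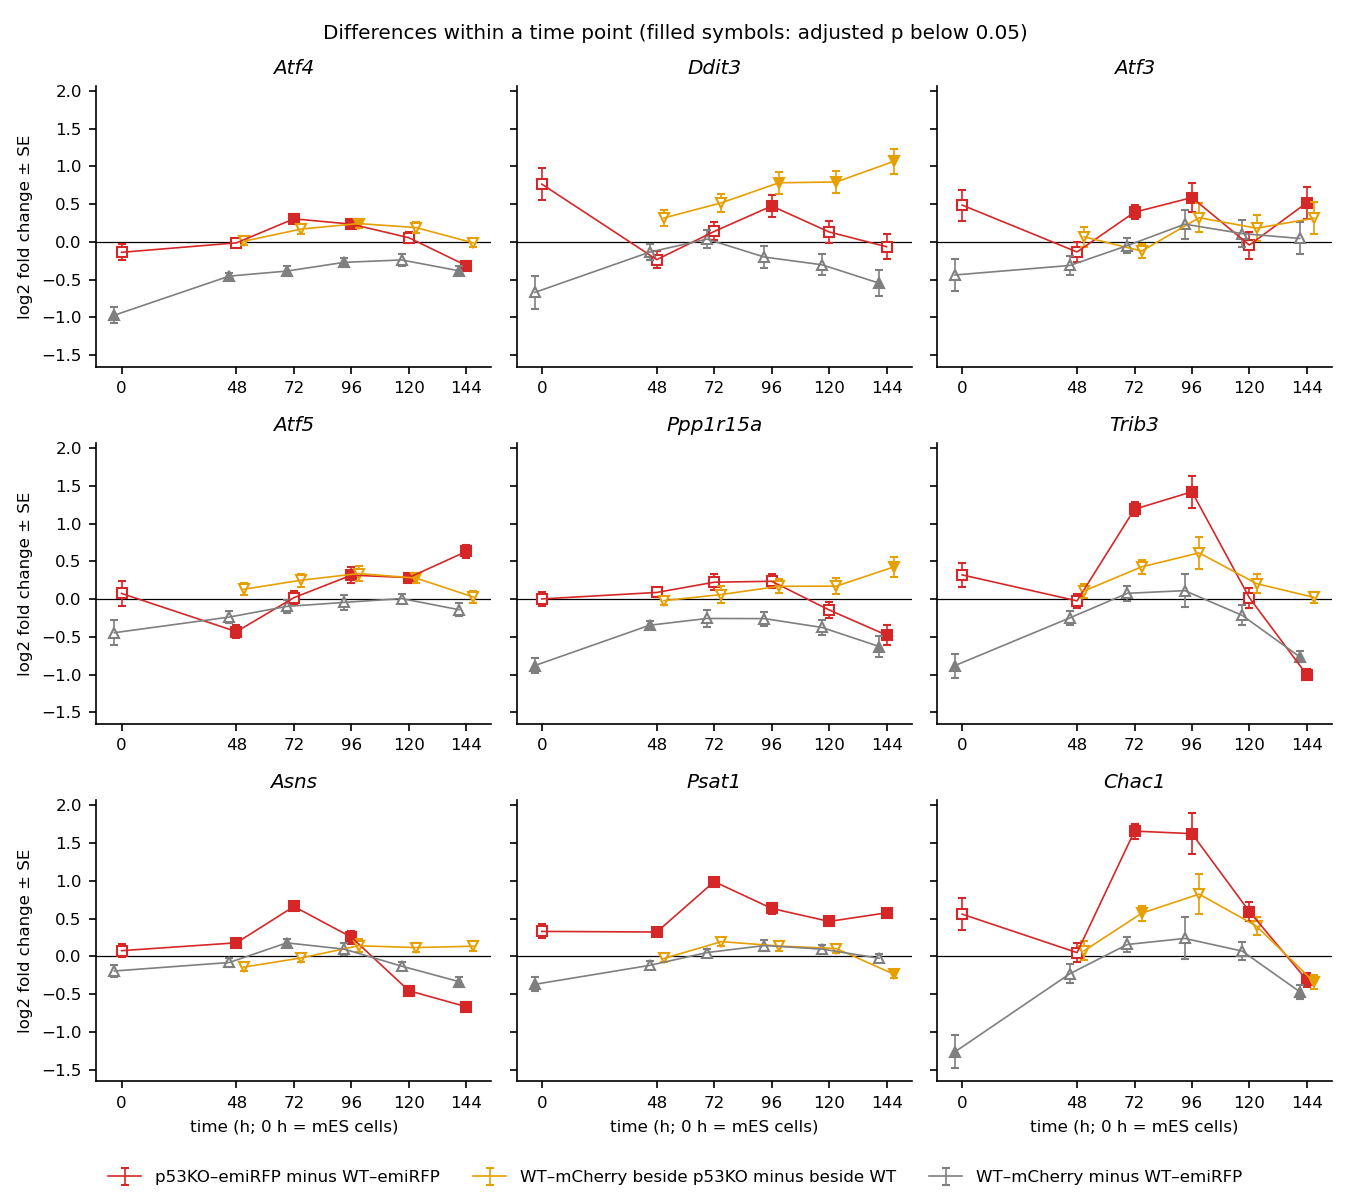
Log2 differences of the 9 genes in the comparisons within a time point. Each panel is 1 gene, colour and symbol mark the comparison, the x axis is hours after aggregation, the y axis the log2 difference, bars are ± 1 standard error, and filled points passed an adjusted p of 0.05. Chac1 and Trib3 reach 1.66 and 1.42 in p53KO–emiRFP cells and turn below 0 at 144 h, and Ddit3 reaches 1.07 at 144 h in the comparison of WT–mCherry cells by neighbour.

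The second comparison asked whether WT cells differed with their neighbours: WT–mCherry cells from WT + p53KO gastruloids were set against the same clone from WT + WT gastruloids. Without the replicate block, Ddit3 was the member that stood out, higher beside p53KO cells at 96, 120 and 144 h. The other calls were single ones: Chac1 at 72 h, Atf4 at 96 h, Atf5 at 120 h and, at 144 h, Ppp1r15a, all higher, and Chac1 and Psat1 at 144 h, lower. Of all genes, 0.559% passed at 72 h, 3.92% at 96 h, 5.94% at 120 h and, by 144 h, 25.6%. The members' median log2 difference was 0.20, 0.32, 0.19 and 0.03 at these 4 times in turn, beside all-gene medians of 0.00, 0.00, −0.01 and −0.03. With the replicate number as a block, given below, 27 of 45 values passed in place of 9. All 9 members were then higher at 96 h, where 20.8% of all genes passed.

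Ddit3 held 735, 816 and 528 normalized counts beside p53KO cells and 393, 471 and 343 beside WT cells at 96 h (log2 difference 0.78 ± 0.14, adjusted p = 0.013). At 120 h the libraries held 872, 834 and 684 against 453, 549.6 and 380.0 (log2 difference 0.79 ± 0.14, adjusted p = 0.00509). At 144 h they held 1241, 953 and 759.7 against 496, 523 and 387 (log2 difference 1.07 ± 0.17, adjusted p = 0.000786). The ranges did not overlap at any of these times. At 48 h the values were 843, 968 and 1070.3 against 661, 798 and 848, and at 72 h 1179.6, 1245 and 894 against 734, 861 and 725. Within each of the 15 pairs of the same replicate and time, Ddit3 was higher beside p53KO cells. The differences of 0.32 ± 0.11 at 48 h (adjusted p = 0.647) and 0.52 ± 0.12 at 72 h (adjusted p = 0.0679) passed with the replicate number as a block (adjusted p = 0.000259 and 0.00221). Leaving out 1 replicate number kept the call at 144 h in every case; at 96 h the adjusted p was 0.367, 0.0821 and 0.00381 without replicates 1, 2 and 3, and at 120 h 0.203, 0.00524 and 0.0285.

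The mean of Ddit3 in these WT–mCherry cells also lay above the emiRFP cells of the same times. At 144 h its mean was 985 ± 242 (SD, n = 3) beside p53KO cells, 657 ± 66.1 in the p53KO–emiRFP cells themselves, 687 ± 101 in WT–emiRFP cells and 469 ± 71.7 in the WT–mCherry cells of WT + WT gastruloids. The order of the means was the same at each of the 5 times with respect to both emiRFP populations, and these differences were not tested. After subtracting the emiRFP share estimated from H2bc14, the member calls over the 5 times numbered 10 in place of 9. The difference of Ddit3 was then 0.79 (adjusted p = 0.0128), 0.82 (adjusted p = 0.00483) and 1.14 (adjusted p = 0.000395) at 96, 120 and 144 h. At 144 h Psat1 then differed by −0.37 (adjusted p = 0.00195), and Asns, at 0.13 without subtraction, became the call gained, 0.18 (adjusted p = 0.0486).

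Chac1 was higher beside p53KO cells at 72 h, with 1146, 1192 and 1078 against 789.7, 799 and 711 (log2 difference 0.57 ± 0.10, adjusted p = 0.0238). At 144 h it was lower, 601, 644 and 545 against 677, 850.3 and 735 (log2 difference −0.34 ± 0.09, adjusted p = 0.0182). Atf4 was higher at 96 h (log2 difference 0.24 ± 0.06, adjusted p = 0.0324), Atf5 at 120 h (log2 difference 0.28 ± 0.06, adjusted p = 0.0218) and Ppp1r15a at 144 h (log2 difference 0.43 ± 0.13, adjusted p = 0.0328), and Psat1 was lower at 144 h (log2 difference −0.24 ± 0.05, adjusted p = 0.00681). At 144 h Asns differed by 0.13 (adjusted p = 0.152). Of these calls other than Ddit3, none passed without each replicate number in turn: the highest adjusted p was 0.55 for Chac1 at 72 h, 0.111 for Chac1 at 144 h, 0.433 for Atf4, 0.247 for Atf5, 0.222 for Ppp1r15a and 0.115 for Psat1.

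With the replicate number as a block (the paired fit), more members passed, and so did more of all genes, for which the shares were 4.94, 2.27, 20.8, 20.2 and 37.3% from the earliest time to the last. At 72 h it called 4 members, all higher beside p53KO cells, adding Trib3 (0.43, adjusted p = 0.00146 against 0.0606) and Psat1 (0.20, 0.0259 against 0.144) to Ddit3 and Chac1. At 96 h it called all 9, all higher, beside the 20.8% of all genes called by the same fit. Among them Chac1 held 991, 1264 and 782 against 554, 776 and 382, a difference of 0.82 (adjusted p = 1.68e-07 with the block and 0.104 without), and Trib3 1022, 1304 and 820.4 against 759.9, 812 and 488, a difference of 0.61 (3.45e-06 with and 0.123 without). Replicate by replicate, both genes were higher beside p53KO cells in 3 of 3 pairs. At 120 h the paired fit called 6 members, all higher, and at 144 h 4 higher and 2 lower. At 48 h it called Ddit3, higher, and Asns, lower (−0.14, adjusted p = 0.004 against 0.739). Without the block edgeR called none at 48 h, where 0.0736% of all genes passed, with 2 members and 1068 of all 17662 genes at an unadjusted p below 0.05 and 0 members called by DESeq2.

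The third comparison set the 2 WT clones against each other, WT–mCherry minus WT–emiRFP, as mES cells and within WT + WT gastruloids, and gives the size of clone differences without a p53 difference. It shares its WT–emiRFP libraries with the first comparison and its WT–mCherry libraries with the second. WT–mCherry cells had the lower levels at 0 and 144 h. In mES cells 5 of 9 members were lower and none higher, where 11.1% of all genes passed, and at 144 h 6 were lower and none higher, where 23.8% passed. The members' median log2 difference was −0.67 at 0 h and −0.38 at 144 h, beside 0.01 and −0.01 over all genes.

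Atf4 was lower in WT–mCherry cells at most times. In mES cells it held 10634, 13859 and 13864 normalized counts against 25221, 25302 and 24605 (log2 difference −0.97 ± 0.11, adjusted p = 0.000306). It was also lower at 48 h (−0.45, adjusted p = 1.63e-05), 72 h (−0.39, adjusted p = 0.0038), 96 h (−0.27, adjusted p = 0.0234) and 144 h (−0.38, adjusted p = 0.00061), and differed by −0.24 at 120 h (adjusted p = 0.151, and 0.00428 with the replicate block). The difference was over 0.2 on the log2 scale at each of the 6 times. In mES cells Chac1 (log2 difference −1.26 ± 0.22, adjusted p = 0.00376), Trib3 (log2 difference −0.88 ± 0.16, adjusted p = 0.0048), Ppp1r15a (log2 difference −0.88 ± 0.10, adjusted p = 0.000298) and Psat1 (log2 difference −0.37 ± 0.09, adjusted p = 0.023) were lower too. Chac1 held 499, 821 and 730.0 against 1268, 1898 and 1745, with no overlap. At 144 h the lower members were Trib3 (−0.76, adjusted p = 4.66e-05), Ppp1r15a (−0.63, adjusted p = 0.00443), Ddit3 (−0.55, adjusted p = 0.0323), Chac1 (−0.47, adjusted p = 0.00276), Atf4 (−0.38, adjusted p = 0.00061) and Asns (−0.33, adjusted p = 0.00259).

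Between those times the clones were closer. At 48 h Atf4 and Ppp1r15a (−0.35, adjusted p = 0.00101) were lower, where 8.9% of all genes passed. At 72 h Atf4 was lower and Asns higher (0.18, adjusted p = 0.0485), where 7.64% passed, and at 96 h Atf4 alone was lower, where 2.15% passed. At 120 h edgeR called none, where 1.22% of all genes passed, with 3 members and 2661 of all 18901 genes at an unadjusted p below 0.05 and 1 member called by DESeq2. Chac1, Trib3 and Psat1, which rose in p53KO–emiRFP cells at 72 and 96 h, differed between the WT clones at those times by 0.16 and 0.24, 0.08 and 0.11, and 0.05 and 0.14, and none of these passed. With the replicate number as a block, 7 members were lower at 0 h, all 9 at 48 h, 4 at 120 h and 6 at 144 h, and 1 was higher and 2 lower at 96 h. The same fit called 17.3%, 28.9%, 15.9%, 10.8% and 33.9% of all genes at 0, 48, 96, 120 and 144 h. Without replicate 2, 3 members passed at 0 h, and without replicate 1, 3 passed at 144 h. With 1 replicate number left out, the calls lost between the WT clones were, at 0 h, Trib3 without replicate 2 (adjusted p = 0.0827) and Psat1 without replicates 2 and 3 (adjusted p = 0.318 and 0.0793), at 48 h Ppp1r15a without replicate 2 (adjusted p = 0.0661), at 72 h Atf4 without replicates 1 and 2 (adjusted p = 0.178 and 0.136) and Asns without replicates 1, 2 and 3 (adjusted p = 0.322, 0.157 and 0.161), at 96 h Atf4 without replicates 1 and 2 (adjusted p = 0.415 and 0.0935) and at 144 h Ddit3 without replicates 1 and 2 (adjusted p = 0.125 and 0.109), Chac1 without replicate 1 (adjusted p = 0.0569) and Ppp1r15a without replicate 1 (adjusted p = 0.0637).

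Levels at 144 h show how the comparisons relate, since WT–emiRFP cells were the reference of the first and the third. Trib3 had a mean of 1774 ± 125 (SD, n = 3) in WT–emiRFP cells and of 1044 ± 64.7 in their WT–mCherry neighbours, and in WT + p53KO gastruloids 1061 ± 42.6 in the WT–mCherry and 885 ± 49.1 in the p53KO–emiRFP cells. WT–emiRFP cells stood above the means of the other 3 populations, which ran from 885 to 1061. For Atf4, too, WT–emiRFP cells were highest, with 14390 ± 216 against 11039 ± 784, 10935 ± 541 and 11586 ± 617. For Asns the p53KO–emiRFP cells were lowest, at 15376 ± 541, below 19355 ± 1233 and 21246 ± 1674 in the WT–mCherry cells and 24409 ± 1179.6 in WT–emiRFP cells. At 72 h the order was another: Chac1 was 2168 ± 168 in p53KO–emiRFP cells, 1138 ± 57.5 in WT–mCherry cells beside them, and 767 ± 48.2 and 687 ± 108 in the WT–mCherry and WT–emiRFP cells of WT + WT gastruloids.

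Over time, members changed in both WT cells (the mean of their groups, weighted equally) and p53KO–emiRFP cells, read from 1 fit of all 69 libraries. That mean held 1 WT–mCherry and 1 WT–emiRFP group at 0 h. From 48 h on it held WT–mCherry cells beside WT cells, WT–mCherry cells beside p53KO cells, and WT–emiRFP cells. The first step thus also shifted the mix of clones, which differed in Atf4 by −0.97 at 0 h and −0.45 at 48 h. A difference between the genotypes was tested from 0 to 48 h and from 48 to 144 h alone, as given further on. From mES cells to 48 h, which combines aggregation with the change of medium, Ddit3 (0.69, adjusted p = 6.25e-07), Chac1 (0.64, adjusted p = 1.69e-05), Atf3 (0.59, adjusted p = 0.000312), Trib3 (0.24, adjusted p = 0.0292) and Psat1 (0.09, adjusted p = 0.0499) rose in WT cells, and Asns (−1.01, adjusted p = 1.95e-28) and Atf4 (−0.30, adjusted p = 1.58e-07) fell. Here 70.3% of all genes passed. In p53KO–emiRFP cells 5 members fell over that step, where 59.5% of all genes passed: Asns (−0.90, adjusted p = 3.58e-17), Ddit3 (−0.66, adjusted p = 0.00082), Atf5 (−0.65, adjusted p = 2.17e-06), Trib3 (−0.42, adjusted p = 0.0154) and Atf4 (−0.36, adjusted p = 3.3e-05). With WT–emiRFP cells alone as the WT cells, 3 of the 7 calls remained, Asns, Atf4 (−0.49, adjusted p = 9.71e-08) and Atf3 (0.56, adjusted p = 0.0197). Ddit3 then changed by 0.34 (adjusted p = 0.0899) and Chac1 by 0.13 (adjusted p = 0.569), and the changes of Trib3, −0.073, and Psat1, −0.0079, had the opposite sign. In WT–mCherry cells the mean of Atf4 was 12786 in mES cells and, at 48 h, 13070 beside WT cells and 13148 beside p53KO cells. With 1 replicate number left out, the calls lost in this step were, in WT cells, Trib3 without replicates 1 and 3 (adjusted p = 0.172 and 0.0598) and Psat1 without replicates 1 and 3 (adjusted p = 0.593 and 0.0707), and in p53KO–emiRFP cells Trib3 without replicates 2 and 3 (adjusted p = 0.0627 and 0.0857).

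From 48 to 72 h, the CHIR99021 pulse, in WT cells Chac1 (−0.96, adjusted p = 8.75e-11), Trib3 (−0.96, adjusted p = 3.93e-14), Ppp1r15a (−0.34, adjusted p = 9.23e-06), Atf4 (−0.21, adjusted p = 2.67e-05) and Psat1 (−0.18, adjusted p = 1.48e-05) fell, and Atf3 (1.17, adjusted p = 2.74e-13) and Asns (0.55, adjusted p = 1.95e-18) rose, where 66.8% of all genes passed. In p53KO–emiRFP cells Atf3 (1.59, adjusted p = 1.37e-09), Asns (0.82, adjusted p = 3.83e-15), Atf5 (0.36, adjusted p = 0.00833) and Psat1 (0.30, adjusted p = 8.54e-05) rose and Ppp1r15a (−0.29, adjusted p = 0.03) fell, where 46.4% passed. Their Chac1 and Trib3 differed by 0.23 (adjusted p = 0.352) and −0.07 (adjusted p = 0.75). From 72 to 96 h both fell in WT cells, Trib3 by 0.77 (adjusted p = 1.67e-10) and Chac1 by 0.37 (adjusted p = 0.00558) on the log2 scale, together with Ddit3 (−0.78, adjusted p = 2.11e-09) and Atf4 (−0.33, adjusted p = 1.25e-09), while Asns (0.34, adjusted p = 8.36e-11) and Atf5 (0.21, adjusted p = 0.00591) rose, where 58.7% of all genes passed. In p53KO–emiRFP cells Trib3 (−0.62, adjusted p = 0.000614), Chac1 (−0.54, adjusted p = 0.0177), Atf4 (−0.51, adjusted p = 8.46e-08) and Psat1 (−0.38, adjusted p = 1.3e-06) fell and Atf5 (0.44, adjusted p = 0.00108) rose over the same step, where 44.6% passed. With 1 replicate number left out, the calls lost in WT cells were Chac1 without replicates 1 and 3 (adjusted p = 0.0644 and 0.153) and Atf5 without replicate 2 (adjusted p = 0.227) from 72 to 96 h. For p53KO–emiRFP cells they were Atf5 without replicates 1 and 2 (adjusted p = 0.0918 and 0.0873) and Ppp1r15a without replicates 1 and 2 (adjusted p = 0.143 and 0.073) from 48 to 72 h, and Chac1 without replicates 1 and 3 (adjusted p = 0.127 and 0.093) from 72 to 96 h. With WT–emiRFP cells alone, Atf5 changed by 0.14 (adjusted p = 0.347) from 72 to 96 h.

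From 96 to 120 h, 8 of the 9 members rose in WT cells and none fell, where 56.9% of all genes passed. The rises were 0.90 for Chac1, 0.61 for Atf3, 0.59 for Trib3, 0.51 for Ppp1r15a, 0.36 for Atf4, 0.33 for Asns, 0.23 for Ddit3 and 0.09 for Psat1, and Atf5 differed by −0.06 (adjusted p = 0.475). Of the 12 immediate early genes that cell dissociation can raise, 9 rose in WT cells over this step and none fell (median 0.78). Over the other steps in time order they numbered 1 higher and 5 lower, 6 higher and 1 lower, 0 higher and 9 lower and, from 120 to 144 h, 6 higher and 0 lower. In p53KO–emiRFP against WT–emiRFP cells 4, 3, 4 and 5 of them were lower at 72, 96, 120 and 144 h, and 1 was higher at 96 h. Their part in the members' changes was not tested. In p53KO–emiRFP cells Trib3 (−0.46, adjusted p = 0.0154) and Asns (−0.22, adjusted p = 0.00797) fell and no member rose, where 35% passed. With the replicate number as a block, Atf4 (0.17, adjusted p = 0.0442 against 0.0649) and Ppp1r15a (0.20, adjusted p = 0.0318 against 0.167) rose over this step, where 39.6% of all genes passed. From 120 to 144 h Psat1 (−0.67, adjusted p = 1.39e-22), Chac1 (−0.65, adjusted p = 2.16e-06), Atf3 (−0.47, adjusted p = 0.000151), Atf5 (−0.35, adjusted p = 9.16e-06) and Asns (−0.13, adjusted p = 0.00528) fell in WT cells and Ppp1r15a (0.21, adjusted p = 0.00436) rose, where 55.5% of all genes passed. In WT–emiRFP cells alone the Asns change was 0.0047, Chac1 changed by −0.05 (adjusted p = 0.89) and Atf5 by −0.17 (adjusted p = 0.281), and Trib3 rose, 0.54 (adjusted p = 0.00466). From 96 to 120 h Ddit3 and Psat1 changed in those cells by 0.30 (adjusted p = 0.186) and 0.13 (adjusted p = 0.0929). In p53KO–emiRFP cells Chac1 (−0.95, adjusted p = 0.000147), Trib3 (−0.48, adjusted p = 0.0211), Psat1 (−0.36, adjusted p = 1.05e-05), Atf4 (−0.29, adjusted p = 0.00204) and Asns (−0.21, adjusted p = 0.0206) fell, where 22.7% passed. With 1 replicate number left out, the calls lost in WT cells were Ddit3 without replicates 1, 2 and 3 (adjusted p = 0.0781, 0.208 and 0.065) and Psat1 without replicates 1 and 3 (adjusted p = 0.39 and 0.279) from 96 to 120 h, and Asns without replicates 1 and 2 (adjusted p = 0.211 and 0.0845) and Ppp1r15a without replicate 2 (adjusted p = 0.145) from 120 to 144 h. For p53KO–emiRFP cells they were Asns without replicates 1 and 2 (adjusted p = 0.0577 and 0.168) and Trib3 without replicate 2 (adjusted p = 0.387), and over the last step Atf4 without replicate 1 (adjusted p = 0.058), Asns without replicates 1 and 2 (adjusted p = 0.268 and 0.096) and Trib3 without replicates 1 and 3 (adjusted p = 0.254 and 0.0571).

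Whether the p53KO effect itself changed with time was tested as an interaction. From 48 to 144 h the difference between p53KO–emiRFP and WT–emiRFP cells became lower for Trib3, Asns, Ppp1r15a and Atf4 and higher for Atf5, Atf3 and Psat1, 7 of 9 members, where 50.2% of all genes passed. The largest of these, in log2 units, were 1.06 ± 0.16 for Atf5 (adjusted p = 1.53e-07), −0.98 ± 0.22 for Trib3 (adjusted p = 0.000147) and −0.85 ± 0.10 for Asns (adjusted p = 9.36e-11). From 0 to 48 h the effect became lower for Ddit3 (log2 difference −1.0 ± 0.24, adjusted p = 0.00693, and 0.192 without replicate 2) and Atf5 (log2 difference −0.50 ± 0.16, adjusted p = 0.0485), where 5.99% passed. The effect on Chac1 changed by −0.36 ± 0.27 from 48 to 144 h (adjusted p = 0.276). Without replicate 1 the call of Atf3 from 48 to 144 h was lost (adjusted p = 0.21), as was that of Psat1 (0.158), without replicate 3 that of Atf4 (0.0805), and without replicate 2 those of Atf4 (0.0529), Atf3 (0.0976) and Psat1 (0.0873). The call of Atf5 from 0 to 48 h was lost without any 1 replicate number (0.195, 0.236 and 0.0826).

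The wider response was read from gene lists that hold none of the 9 members. At 72 h the arms of the ATF4 programme for amino acids were higher in p53KO–emiRFP cells. Of 12 genes of amino acid synthesis and one-carbon metabolism, 11 rose, with a list median of 0.66 in log2 difference, among them Gpt2 (1.06), Mthfd2 (0.99) and Aldh1l2 (1.20). Of 10 amino acid transporters all 10 rose (median 0.58), led in significance by Slc7a1 (0.83), Slc7a5 (0.74) and Slc1a5 (0.60). All 13 genes for cytosolic tRNA charging rose (median 0.51), including Mars1 (0.66), Lars (0.58) and Nars (0.61). Of the remaining lists, 4 of 14 endoplasmic reticulum chaperone and unfolded protein response genes rose (median 0.13), Herpud1 (0.59) most, and of 15 eIF2 kinase and eIF2 machinery genes 9 rose and 3 fell (median 0.18). The background share was 29.1% and the all-gene median 0.01. At 96 h the counts were 10 of 12, 8 of 10 and 12 of 13 higher for the first 3 lists, with medians of 0.49, 0.55 and 0.34, where 23.3% of all genes passed.

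At 144 h 65.4% of all genes passed, 6438 higher and 6237 lower. Among the synthesis genes 5 were higher and 4 lower in p53KO–emiRFP cells, with Aldh1l2 at 2.20 and Cth at −1.55. Among the transporters 4 were higher and 3 lower, with Slc7a6 at 1.09 and Slc7a3 at −1.36. Of the 13 tRNA charging genes 8 fell and 2 rose (median −0.15), Aars (−0.47) the most significant. The list of 15 other stress genes downstream of ATF4 or CHOP went both ways at 72 h, 7 higher and 4 lower, and the lower ones included Tnfrsf10b (−1.92), Sesn2 (−1.05) and Ddit4 (−1.02), which p53 is also known to induce. Of 14 p53 targets, 12 or 13 were lower in p53KO–emiRFP cells at each of the 6 times, with medians from −2.78 to −1.41. Cell-type markers moved in the same comparison. At 72 h 3 of 6 pluripotency markers were lower (median −0.18), and the 5 primitive streak and paraxial mesoderm markers had a median of 0.30. At 96 h 5 of 6 pluripotency markers were lower (median −1.16), and of the 5 streak and mesoderm markers 3 were lower and 1 higher (median −0.74). At 120 h 6 of 6 pluripotency markers (median −2.52), 3 of 4 haematoendothelial markers (median −2.22) and 2 of 4 formative markers (median −0.89) were lower and 3 of 5 streak and mesoderm markers higher (median 2.79). At 144 h 6 of 6 pluripotency markers (median −2.40), 4 of 4 formative markers (median −1.80) and 2 of 4 haematoendothelial markers (median −0.68) were lower, 5 of 5 primitive streak and paraxial mesoderm markers were higher (median 3.35), and 2 of 3 neural markers were higher and 1 lower (median 0.54). In mES cells 4 of 4 formative markers were higher (median 0.94) and 2 of 6 pluripotency markers lower (median −0.22). Of the 2 endoderm markers 1 was lower in mES cells (median −1.67) and at 120 h (median −0.74). At 48, 72 and 96 h 1 was higher (medians 0.48, −0.14 and 0.53), and at 144 h none was called. At 120 h 1 of 3 neural markers was higher and 1 lower (median 0.15). The part of the markers in these differences of the members was not tested.

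The same lists were counted in the comparison of WT–mCherry cells by neighbour. Of the 12 synthesis genes, 3 were higher and none lower at 72 h (0.33 for Gpt2, 0.53 for Aldh1l2 and 0.35 for Pycr1), 3 at 96 h and 2 at 120 h, with medians of 0.17, 0.15 and 0.09, where 0.559%, 3.92% and 5.94% of all genes passed at these times. The transporter Slc1a4 was higher at 96 h (0.39) and 120 h (0.30), with a list median of 0.21 at 96 h, and the tRNA charging genes had medians of 0.10, 0.07 and −0.03 at 72, 96 and 120 h. Of the other ATF4 or CHOP genes, 6 of 14 tested were higher at 96 h (median 0.26), 4 of 15 higher and 1 lower at 120 h (median 0.37) and 5 of 15 higher at 144 h (median 0.17). Among them were Vldlr (0.57), Tnfrsf10b (0.24) and Stc2 (0.68) at 96 h, Ddit4 (0.94) at 120 h, and Ero1l (0.49) and Gdf15 (0.75) at 144 h. Several of these genes are known to respond to p53 as well, and 5, 6 and 7 of 14 p53 targets were higher at 96, 120 and 144 h, Mdm2 by 0.49 and Bbc3 by 0.75 at 144 h. At 144 h nearly all calls among amino acid supply genes were lower: 5 of 12 synthesis genes were lower and 1 higher, 4 of 10 transporters and 7 of 13 tRNA charging genes were lower, with Mthfd2 at −0.35, Slc7a11 at −0.70 and Wars at −0.33. At that time 6 of 14 endoplasmic reticulum genes were lower (median −0.13), against 25.6% of all genes called. Cell-type markers moved here too. Of 6 pluripotency markers 2, 2, 3 and 2 were lower at 48, 72, 96 and 120 h (median −0.35 at 48 h), and at 144 h their median was 0.18. Among 3 neural markers 1 was lower at 72 and 120 h, and by 144 h 2 were (median −0.49). Of 5 primitive streak and paraxial mesoderm markers 3 were higher at 120 h (median 0.90) and at 144 h (median 1.24), of 4 haematoendothelial markers 2 were lower at both times (medians −0.87 and −0.63), and of 4 formative markers 1 was lower at 120 h and 3 at 144 h (median −0.64). After subtraction of the emiRFP share, the streak and mesoderm markers at 144 h numbered 0 higher and 1 lower (median 0.01, where 33.6% of all genes passed), and at 120 h still 3 higher. At 144 h the subtraction also gave 11 of 14 p53 targets higher, 7 of 10 transporters lower and 1 higher, and 6 of 12 synthesis genes lower and none higher. Of 2 endoderm markers 1 was higher at 144 h (median 0.99, and 1.09 after subtraction) and none was called earlier. Among the 12 immediate early genes 1 was higher at 96 h and none was called at the other times. Their medians were −0.13, −0.15, 0.31, −0.11 and 0.36 from 48 to 144 h, and after subtraction 2 were higher at 144 h (median 0.41). The part of the markers and of these genes in the members' differences was not tested, and the lists were not tested as sets.

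The WT clones differed in the same lists. In mES cells 7 of 12 synthesis genes (median −0.49), 4 of 10 transporters with 1 higher (median −0.39), 5 of 13 tRNA charging genes (median −0.32) and 5 of 15 other ATF4 or CHOP genes (median −0.48) were lower in WT–mCherry cells, where 11.1% of all genes passed, among them Nupr1 (−1.92), Gpt2 (−0.92) and Sars (−0.60). At 144 h the counts of lower genes were 6, 6, 8 and 8 in the same order, with 2 transporters and 1 other stress gene higher, where 23.8% of all genes passed. Cell-type markers also differed between the clones. In mES cells 3 of 4 formative markers (median 0.54) and 2 of 4 haematoendothelial markers (median 0.20) were higher in WT–mCherry cells. Of the 6 pluripotency markers 4 were higher at 48 h (median 0.47) and 3 at 72 h (median 0.40), and 2 were lower at 120 h (median −0.33) and 5 at 144 h (median −0.48). Neural markers were higher for 2 of 3 at 72 h (median 0.62) and 144 h (median 0.72), and at 144 h 2 of 4 formative markers were lower (median −0.31) and 2 of 5 streak and mesoderm markers higher (median 0.01). Neither endoderm marker was called. Among the 12 immediate early genes 1 was higher and 1 lower in mES cells, and 1 was lower at 144 h. Their medians were −0.09, −0.09, −0.24, −0.27, −0.21 and −0.38 from 0 to 144 h. What part the markers and these genes had in the members' values was not tested.

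**Figure D4:**
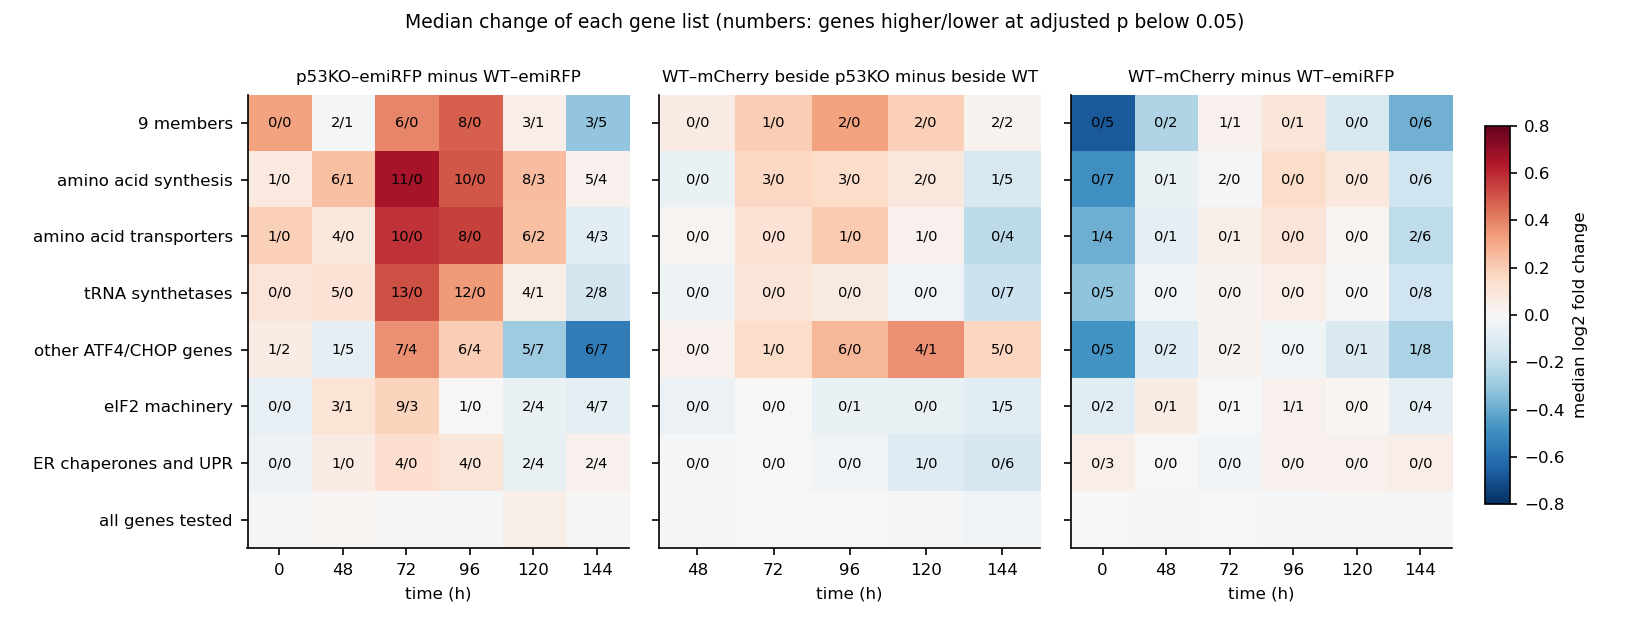
Median log2 difference of the gene lists in each comparison within a time point. Rows are the 9 members, 6 lists and all genes tested, the 3 panels are the comparisons with hours after aggregation as columns, colour is the median log2 difference and the printed pair, left out for all genes, gives the numbers of genes higher and lower at an adjusted p of 0.05. The lists for amino acid synthesis, transport and tRNA charging are above 0 in p53KO–emiRFP cells at 72 and 96 h, with 11, 10 and 13 genes higher at 72 h.

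Across the 23 groups the members did not vary as one block. As a description over group means, which share libraries' depth and clones, Pearson's r of log2 CPM between pairs of members ran from −0.61 (Trib3 and Atf3) to 0.84, with a median of 0.22, and 24 of 36 pairs were above 0. For these correlations CPM means normalized counts divided by a single constant for all libraries, not counts scaled by library total. Atf4 and Trib3 (0.84) and Trib3 and Chac1 (0.84) were the closest pairs. Over the 20 gastruloid groups alone Asns and Atf3 were the closest, at 0.86 (0.46 over all 23 groups), and 20 of 36 pairs were above 0. Among 12790 genes with a mean of at least 1 on the log2 CPM scale, the gene most like Atf4 was Nupr1 (r = 0.88), followed by Puf60 and Adm2. The one most like Psat1 was Phgdh (0.93), which catalyses the first step of the same serine pathway, then Arl14ep and Herpud1. Chac1 was closest to Gpt2 (0.92), Pck2 and Mthfd2, and Trib3 to Aars (0.94), Mrps10 and Dnajc17. For Asns these were Porcn (0.92), Alpl and Dars, for Atf3 Serpinh1 (0.95), Prrg3 and Nsd2, and for Ppp1r15a Micu3 (0.87), Tbc1d31 and Arrdc2. Ddit3 and Atf5 had the least similar neighbours: Rnf207 (0.78), Hpn and N4bp2l1 for Ddit3, and Fer1l5 (0.79), Exoc3l2 and Mpst for Atf5.

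**Figure D5:**
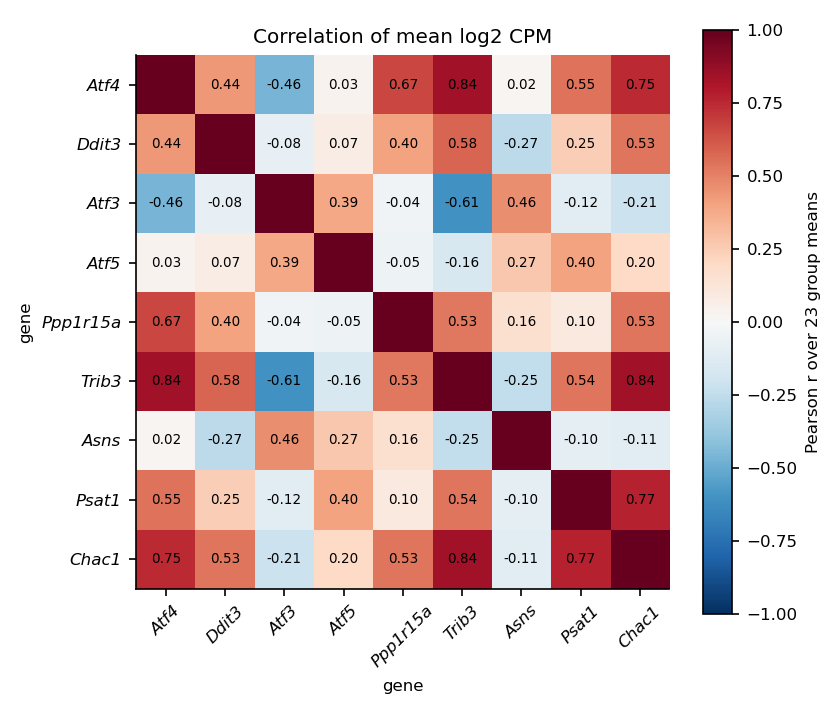
Pearson's r between the 9 genes over the means of the 23 groups. Each cell is a pair, coloured and printed by r of log2 CPM, here taken from normalized counts. The pairs of Trib3 with Atf4 and with Chac1 reach 0.84, and Atf3 with Trib3 is lowest at −0.61.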

How the data were processed

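Polyadenylated, stranded RNA libraries were made from mES cells and from cells sorted by fluorophore out of dissociated gastruloids. The values deposited by the authors are raw counts per gene symbol: reads were trimmed (Trim Galore 0.6.7), aligned to GRCm38.p6 (STAR 2.7.11b, per the submitters' processing notes) and counted per Gencode gene by STAR, with no normalization. Library totals of 26722541 to 72981570 counts limit the precision of low genes such as Atf3 most.

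Groups followed the labels, and times were labelled in hours. Counts were scaled by median-of-ratios size factors over all 69 libraries and tested with edgeR 4.0.16 (R 4.3.3; glmQLFit and glmQLFTest, filterByExpr by group), with Benjamini-Hochberg adjustment over all genes tested. Comparisons within a time point used the 12 libraries of that time (9 at 0 h), and changes over time used 1 fit of 23 groups. Log2 differences are given ± standard error, computed from the difference and its F statistic. RPKM were computed from CPM and the union of Gencode M21 exons. The fit was tested on simulated data.

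The named genes are all 9 members in every comparison, the 3 genes most correlated with each over group means, and up to 3 genes with the smallest adjusted p of each list and comparison described, with others named as examples after their values were seen. The members and lists were chosen with earlier results of these data known.

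Replicates are 3 temporally separate experiments in the study's reporting summary. Deviations from group means correlated between samples of the same number in 50 of 51 pairs within a time point above 0.1 (0.0726 to 0.721; the exception was between the WT clones at 72 h), so replicate number was added as a block for comparisons within a time point. Between consecutive times 34 of 45 pairs were above 0.1, and the block was also fitted for changes over time. Alternatives were TMM scaling, no low-count filter, the block, DESeq2 1.42.0, each replicate number left out, other sets of libraries in the fit, subtraction of emiRFP RNA estimated from H2bc14, WT–emiRFP cells alone over time, and CPM by total counts.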

Additional observations from a re-analysis of the deposited data

Results flagged for a closer look

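The difference between p53KO–emiRFP and WT–emiRFP cells changed between times by the interaction test for 9 values. From 0 to 48 h it became lower for Ddit3 (change of −1.0 on the log2 scale) and for Atf5 (−0.50). From 48 to 144 h it became lower for Trib3 (−0.98), Asns (−0.85), Ppp1r15a (−0.56) and Atf4 (−0.30) and higher for Atf5 (1.06), Atf3 (0.65) and Psat1 (0.25). The step from 0 to 48 h also changed culture medium and aggregation for both genotypes, which cannot be told apart from time. Of the 9 values, 4 passed in each fit that left out 1 replicate number.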

How the results depend on the processing

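Member calls, each a gene in 1 comparison, were recounted under every alternative. For p53KO–emiRFP against WT–emiRFP cells, 29 of 54 passed, and 23 to 29 without 1 replicate number. For WT–mCherry cells by neighbour, 9 of 45 passed, but 16 without the low-count filter, 14 with DESeq2, 27 with the replicate block, 4 with the 2 groups alone in the fit and 1 to 8 without 1 replicate number (1 without replicate 1, 4 without replicate 2). Between the WT clones, 16 of 54 passed, 32 with the replicate block and 9 to 15 without 1 replicate number (9 without replicate 2). Over time, 34 of 45 passed in WT cells (28 to 31 without 1 replicate number, 37 with the block, and 25 with WT–emiRFP cells alone, where 3 in place of 7 passed from 0 to 48 h) and 22 of 45 in p53KO–emiRFP cells (15 to 21, and 26 with the block); the change of the p53KO effect gave 9 of 18 (4 to 7, the 4 without replicate 2, and 9 with the block). By step in time order, the block called 8, 7, 7, 8 and 7 members in WT cells, where 72.2, 69.3, 61.6, 61 and 59.1% of all genes passed. In p53KO–emiRFP cells it called 6, 5, 6, 4 and 5, where 62.4, 50.3, 48.2, 39.6 and 27.3% passed. The cause of these shifts was not tested.

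With WT–emiRFP cells alone as the WT cells, 3 changes reversed: Trib3 (−0.073) and Psat1 (−0.0079) from 0 to 48 h and Asns (0.0047) from 120 to 144 h. Of 2223 gene values under alternatives, 1924 kept direction and side of the threshold, 115 gained and 124 lost significance, 3 reversed, and 57 changed sign between values that passed in neither fit. Called under every alternative were 17 values of the first comparison, 1 of the second (Ddit3 at 144 h), 7 of the third, 22 and 13 over time in WT and p53KO–emiRFP cells, and 4 interactions. For the levels of members, the ratio of highest to lowest group mean had a median over members of 2.84, and 2.72 with CPM by total counts. Over all genes at 144 h, WT–mCherry cells beside p53KO cells had 1959 higher and 2999 lower calls, and 2330 and 2365 with TMM. Apart from the changes given or counted with the results, the block changed no other call within a time point but that of Ppp1r15a between the WT clones at 72 h.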

Other observations

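Eif2ak2, which encodes the eIF2 kinase that senses double-stranded RNA, differed between the WT clones as Atf4 did. It was lower in WT–mCherry than in WT–emiRFP cells in mES cells (log2 difference −0.90, adjusted p = 0.000164), and differed by −0.68, −0.61, −0.43 and −0.34 at 48, 72, 96 and 144 h, all called by edgeR. At 120 h its difference was −0.41 (adjusted p = 0.131, and 0.000577 with the replicate block). This gene was singled out after its values were seen.

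Endoplasmic reticulum chaperone and unfolded protein response genes fell together from 72 to 96 h. In WT cells 13 of 14 fell and none rose (median log2 change −0.28), and in p53KO–emiRFP cells 12 of 14 fell and none rose (−0.35). Dnajb11, a chaperone partner of BiP, changed by −0.44 in WT and −0.53 in p53KO–emiRFP cells, and Hspa5, which encodes BiP, by −0.26 and −0.33. In the same step 58.7% and 44.6% of all genes passed in either direction.

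Single genes of amino acid supply parted in p53KO–emiRFP cells by 144 h. Against WT–emiRFP cells, Cth, the last enzyme of cysteine synthesis from methionine, was higher by 0.48 at 72 h and 0.50 at 96 h and lower at 120 h (−0.70) and 144 h (−1.55). Aldh1l2, a mitochondrial folate enzyme, was higher by 1.20, 1.66, 1.01 and 2.20 at 72, 96, 120 and 144 h. Slc7a3, an arginine and lysine transporter, was higher at 72 h (0.56) and 96 h (0.48) and lower at 120 h (−0.41) and 144 h (−1.36). All of these passed with edgeR.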
